A study of Mus musculus with 6 samples.

Results

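In all, 10 chaperone genes of the cytosol and of the mitochondrial matrix were followed in RNA-seq libraries of tachypaced and control cultures labelled HL-1. They are the HSP90 genes Hsp90aa1 and Hsp90ab1, the HSP90 to HSP70 adaptor Stip1, the HSP70 gene Hspa8 with its relatives Hspa4 and Hsph1, the J-domain genes Dnaja1 and Dnajb1, and the mitochondrial chaperonin pair Hspd1 and Hspe1. They were chosen by gene name, and all 10 were found among the 23060 rows of the deposited table. HL-1 is a mouse atrial cardiomyocyte line that keeps contractile features in culture, and tachypacing is rapid electrical stimulation used to model the atrial rate of atrial fibrillation. There were 3 tachypaced and 3 control libraries, all labelled wild type (WT) and heart, and the rate and duration of pacing are not given in the labels. All 6 cultures were grown in Claycomb Medium with 0.1 mM norepinephrine, 2 mM L-glutamine, 10% FBS and penicillin/streptomycin at 100 U/mL. The labels do not say whether the replicates were separate cultures, so each p-value measures only how these 6 libraries vary, and that variation may be technical.

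HSP70 binds unfolded stretches of client proteins and releases them in a cycle driven by ATP. J-domain proteins such as Dnaja1 and Dnajb1 bring clients and start hydrolysis, and the HSP110 family (Hspa4, Hsph1) exchanges the nucleotide so that the client is let go. Stip1 (also called HOP) holds HSP70 and HSP90 at once, and passes clients such as kinases and steroid receptors to HSP90 for final maturation. Inside mitochondria, HSP60 (Hspd1) forms a barrel in which imported proteins fold, closed by the lid HSP10 (Hspe1). Many of these genes are induced by the heat shock factor HSF1 when proteins unfold, while Hsp90ab1 and Hspa8 are also transcribed at a high level without stress. In atrial cells, heat shock proteins are known as factors that protect against the loss of protein balance during tachypacing.

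Values are FPKM, in which fragments are divided by the length of the transcript and by the mapped total, and summed to 411050 to 432244 per library. Read depth is unknown. The labelled cell type was checked against its markers. Of 15 cardiomyocyte markers, 8 were listed at 0 in every library (among them Myh6, Actc1, Myl7, Nkx2-5 and Gata4), and 14 stayed under 1 FPKM in every library. Their summed level was 3.73 to 4.02 FPKM in tachypaced and 3.22 to 4.02 FPKM in control libraries, nearly all of it from Tnni3. Of 12 macrophage markers 11 had a mean of at least 1 FPKM and 0 were listed at 0 throughout, with a summed level of 1882 to 2068 FPKM in tachypaced and 1536 to 1724 FPKM in control libraries. Of those 11 markers 3 were called higher by limma at the adjusted threshold (Lyz2, Cd14 and Ctss) and 0 lower, against 2.30% and 3.22% of all tested genes. At an unadjusted p under 0.05, 8 were higher and 0 lower, against 10.8% and 19.4% of all tested genes. The log2 fold change was positive for 10 of the markers and negative for 1. In all 6 libraries these levels go against the label of an atrial cardiomyocyte line, so HL-1 is used here as the name on the label only. The part of these markers in the results below was not tested. In bulk RNA, fewer cells of a type and less RNA per cell cannot be told apart. Control replicate 1 stood nearer to the tachypaced libraries than the other controls did, with a median absolute log2 distance to the tachypaced mean of 0.09 over all tested genes, against 0.15 and 0.16 for control replicates 2 and 3. Leaving it out gave 1160 higher and 1948 lower calls over all genes, against 238 and 334 with it. Leaving out the control nearest to the tachypaced libraries tends to widen differences by construction. With any other single library left out, higher calls ran from 1 to 3 and lower calls from 0 to 1. Over the 10 chaperones the same distance was 0.12 for control replicate 1, against 0.09 and 0.19 for control replicates 2 and 3, and control replicate 1 was the nearest control for 6 of the 10 genes.

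In tachypaced libraries, 2 of the 10 chaperone genes passed the test and 0 rose: Hsp90ab1 fell by 19.6% and Stip1 fell by 25.0%. The other 8 did not pass, with differences of their mean level from control between -9.19% and 9.31%. The test covered 10361 genes that averaged 1 FPKM or more, all 10 chaperones among them; 238 rose (2.30%) and 334 fell (3.22%), so that 5.52% were called (limma-trend on log2(FPKM + 1), two-sided, Benjamini-Hochberg adjusted p threshold of 0.05). At an unadjusted p under 0.05, 4 of the 10 were lower and 0 higher (Hsp90ab1, Stip1, Hspd1 and Hsph1), against 30.2% of all tested genes in either direction, 10.8% higher and 19.4% lower. These shares rest on few genes, and no test was run over the list. Of the 10 fold changes 8 were negative, as were 58.9% of those of all tested genes. The median log2 fold change of the 10 was -0.09, against -0.04 over all genes tested. Median of ratios scaling gave 221 higher and 184 lower calls over all genes (1.78% lower), with 1 of the 10 chaperones called lower (Hsp90ab1). A common total per library gave 250 higher and 924 lower (8.92% lower), with 3 of the 10 called lower (Hsp90ab1, Stip1 and Hspd1).

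The 10 genes differed widely in level. By their mean FPKM over the 6 libraries, a scale per transcript length on which genes can be compared, the order was Hsp90ab1 (1063), Hspa8 (960), Hsp90aa1 (261), Hspd1 (257), Hspe1 (163), Stip1 (97.5), Hsph1 (77.4), Hspa4 (57.5), Dnaja1 (34.4) and Dnajb1 (18.2). The ranges over the 6 libraries overlapped between neighbours for Hsp90ab1 and Hspa8, for Hsp90aa1 and Hspd1, and for Stip1 and Hsph1, and for no other neighbours. Together the 10 genes made up 0.669%, 0.639% and 0.690% of the summed FPKM in the 3 tachypaced libraries, against 0.753%, 0.7495% and 0.777% in the 3 control libraries. These shares did not overlap, but neither did the library totals that they are divided by. Totals were 419557 to 432244 FPKM in tachypaced and 411050 to 416820 FPKM in control libraries. The 10 genes summed to 2760 to 2894 FPKM in tachypaced and 3095 to 3237 FPKM in control libraries. Hsp90ab1 and Hspa8 alone supplied 66.2% to 67.3% of this sum in tachypaced and 68.0% to 68.6% in control libraries. Mean Hsp90ab1 was 947 FPKM in tachypaced and 1178 FPKM in control libraries, and mean Hspa8 was 946 and 973 FPKM. The lower share therefore does not describe each of the 10 genes.

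**Figure D1:**
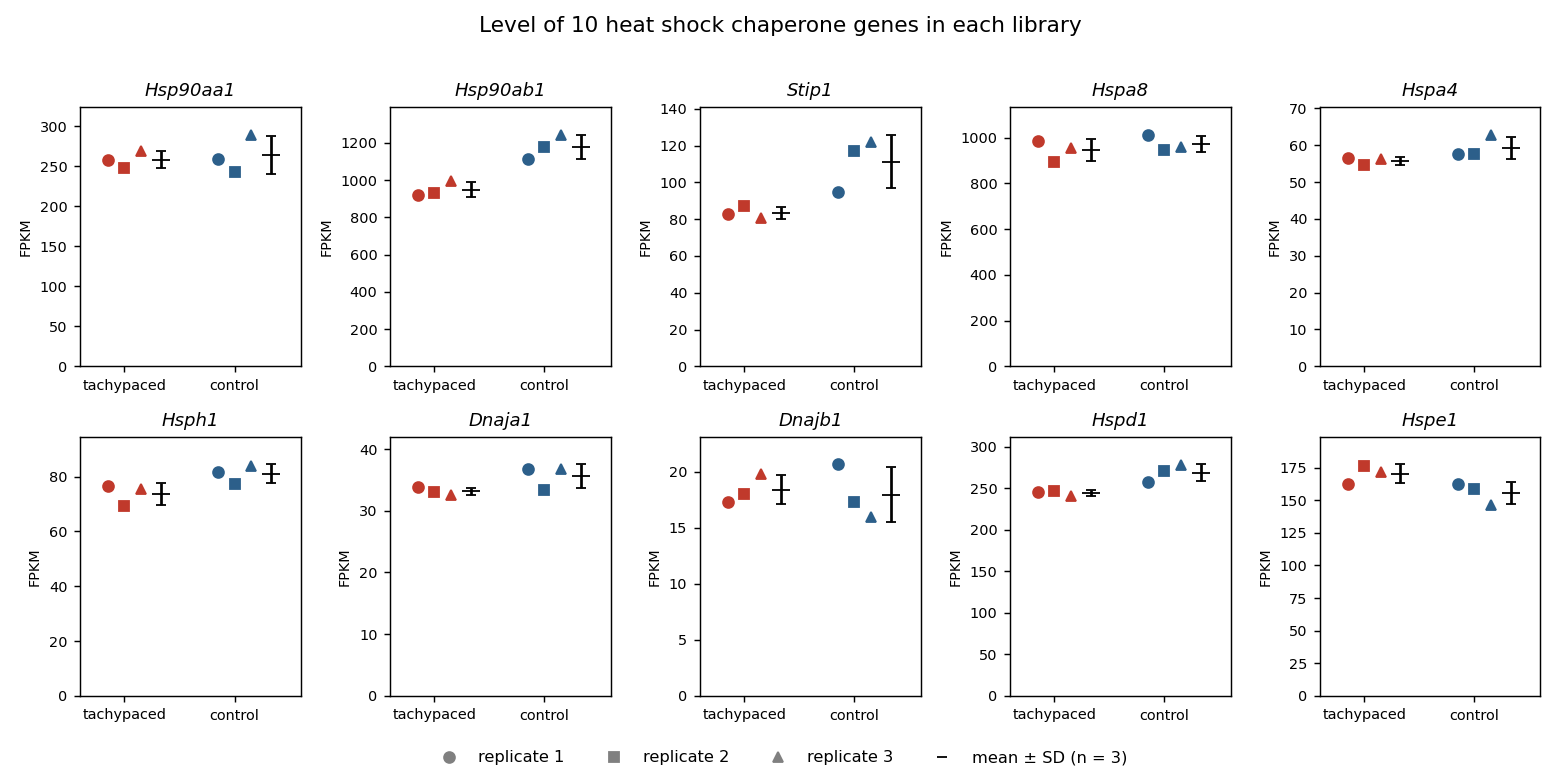
Level in FPKM of each of the 10 chaperone genes (1 panel per gene, linear axis from 0) in the 3 tachypaced (red) and 3 control (blue) libraries, with symbols for the replicate number and mean ± SD in black. All 3 tachypaced libraries lie below all controls for Hsp90ab1, Stip1, Hspa4, Hsph1 and Hspd1 and above them for Hspe1, and the groups overlap in the other 4 panels.

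Of the 2 HSP90 genes, the constitutive one passed the test and the inducible one did not, which alone does not show unequal change. Hsp90ab1 (HSP90 beta; ENSMUSG00000023944.14, chr17:45567775-45573271, minus strand, GRCm38) stood at 917, 931 and 993 FPKM in tachypaced libraries, against 1112, 1179 and 1242 FPKM in control libraries. The groups did not overlap, and the highest tachypaced value was below the lowest control value. Means were 947 ± 40.4 FPKM in tachypaced and 1178 ± 65.2 FPKM in control libraries (SD, n = 3 each), a log2 fold change of -0.31 (SE 0.06, limma adjusted p = 0.0435). Hsp90aa1 (HSP90 alpha; ENSMUSG00000021270.13, chr12:110690605-110702728, minus strand) stood at 258, 248 and 269 FPKM in tachypaced libraries, against 259, 243 and 289 FPKM in control libraries. Here the control libraries spanned the whole tachypaced range, and the log2 fold change was -0.03 (SE 0.07, limma adjusted p = 0.816).

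The 2 HSP90 genes were set against each other within each library, where the library total does not matter. The Hsp90aa1/Hsp90ab1 ratio was 0.281, 0.267 and 0.270 in tachypaced libraries, against 0.233, 0.206 and 0.233 in control libraries. The groups did not overlap, with a difference of 0.29 on the log2 scale (exact permutation test, two-sided, p = 0.1, the smallest that 3 against 3 libraries allow; adjusted p = 0.25 over 5 ratios). The difference was 0.23 to 0.31 with any 1 library left out. A design of this size cannot reach the threshold, so unequal change of the 2 genes is given here by its values alone.

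Stip1, the adaptor between HSP70 and HSP90, had the largest fold change of the 10 genes. Stip1 (ENSMUSG00000024966.9, chr19:7020702-7039967, minus strand) stood at 82.9, 87.1 and 80.7 FPKM in tachypaced libraries, against 94.8, 117 and 122 FPKM in control libraries. The groups did not overlap, but control replicate 1 lay close to the tachypaced libraries and well below the other controls. Means were 83.6 ± 3.25 FPKM in tachypaced and 111 ± 14.5 FPKM in control libraries (SD, n = 3 each), a log2 fold change of -0.40 (SE 0.09, limma adjusted p = 0.0455). Without control replicate 1 it was -0.51 (SE 0.05, adjusted p = 0.000605), but leaving out the control nearest to the tachypaced libraries widens the difference by construction. Without control replicate 2 or 3 the adjusted p for Stip1 was 0.158 and 0.139. Stip1 shares runs of 100 bases with Cfap20, and how such reads were assigned is not given. Cfap20 stood at 28.5, 28.5 and 31.0 FPKM in tachypaced libraries, against 32.4, 34.1 and 36.3 FPKM in control libraries. It did not pass (log2 fold change -0.22, limma adjusted p = 0.0677), and its part in the Stip1 values was not tested. The Stip1/Hspa8 ratio overlapped between the groups, at 0.0839, 0.0973 and 0.0845 in tachypaced and 0.0937, 0.124 and 0.127 in control libraries (exact permutation p = 0.2; adjusted p = 0.333 over 5 ratios).

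Both calls depended on the libraries used. Without control replicate 1, Hsp90ab1, Stip1 and also Hspd1 were called lower, 3 of the 10, where 18.8% of all tested genes were called lower and 30.0% in either direction. With any 1 of the other 5 libraries left out (control replicate 2 or 3, or tachypaced replicate 1, 2 or 3), 0 of the 10 were called, and each of these 5 fits called only 1 to 3 of all tested genes. The adjusted p for Hsp90ab1 reached up to 0.173, while its log2 fold change stayed between -0.35 and -0.27. For Stip1 the log2 fold change stayed between -0.51 and -0.33 with 1 library left out.

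**Figure D2:**
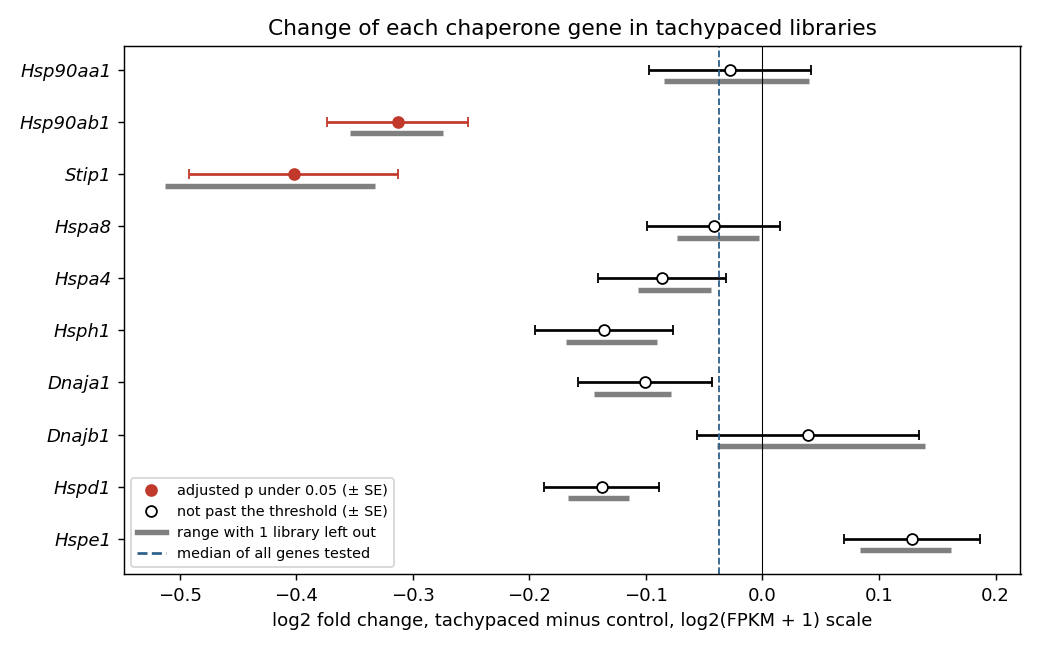
Log2 fold change (tachypaced minus control, log2(FPKM + 1) scale) of each of the 10 genes with its SE, red where the adjusted p was under 0.05; grey bars give the range with 1 library left out, and the dashed line is the median of all genes tested (-0.04). Hsp90ab1 (-0.31) and Stip1 (-0.40) lie apart from the other 8, which lie between -0.14 and 0.13.

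None of the HSP70 machinery passed the test (0 of 5 genes by limma at the adjusted threshold, and Hsph1 alone at an unadjusted p under 0.05). Hspa8 (HSC70, the constitutive HSP70; ENSMUSG00000015656.17, chr9:40800984-40810087, plus strand) stood at 987, 895 and 955 FPKM in tachypaced libraries, against 1012, 947 and 960 FPKM in control libraries. The groups overlapped, with a log2 fold change of -0.04 (SE 0.06, limma adjusted p = 0.652). In the HSP110 family, Hsph1 (ENSMUSG00000029657.15, chr5:149614287-149636376, minus strand) stood at 76.7, 69.1 and 75.5 FPKM in tachypaced libraries, against 81.8, 77.4 and 84.0 FPKM in control libraries. Hspa4 (ENSMUSG00000020361.13, chr11:53259814-53300457, minus strand) stood at 56.5, 54.5 and 56.2 FPKM in tachypaced libraries, against 57.5, 57.5 and 62.8 FPKM in control libraries. For both nucleotide exchange genes every tachypaced value was below every control value, by narrow gaps, and neither passed (log2 fold changes of -0.14 and -0.09, limma adjusted p = 0.161 and 0.316). Their ratio did not separate the groups: Hsph1/Hspa4 was 1.32 ± 0.0479 in tachypaced and 1.37 ± 0.0472 in control libraries (SD, n = 3 each, exact permutation p = 0.5; adjusted p = 0.5 over 5 ratios).

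The J-domain genes, which deliver clients to HSP70, were the lowest of the 10. Dnaja1 (ENSMUSG00000028410.13, chr4:40722150-40737149, plus strand) stood at 33.8, 33.002 and 32.6 FPKM in tachypaced libraries, against 36.7, 33.4 and 36.7 FPKM in control libraries. Only control replicate 2 fell within the tachypaced range, and the log2 fold change was -0.10 (SE 0.06, limma adjusted p = 0.263). Dnajb1 (HSP40, a J-domain gene strongly induced by heat; ENSMUSG00000005483.10, chr8:83608193-83612653, plus strand) stood at 17.3, 18.1 and 19.8 FPKM in tachypaced libraries, against 20.7, 17.3 and 15.9 FPKM in control libraries. Control replicate 1 held the highest of the 6 values, the groups overlapped, and the log2 fold change of 0.04 (SE 0.10, limma adjusted p = 0.813) changed sign when control replicate 3 or tachypaced replicate 3 was left out. The Dnajb1/Dnaja1 ratio was 0.556 ± 0.0494 in tachypaced and 0.505 ± 0.0658 in control libraries (SD, n = 3 each, exact permutation p = 0.5; adjusted p = 0.5 over 5 ratios).

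The chaperonin pair lay on opposite sides of control, without either gene passing the test. Hspd1 (HSP60, the barrel; ENSMUSG00000025980.14, chr1:55077835-55088243, minus strand) stood at 245, 247 and 240 FPKM in tachypaced libraries, against 258, 271 and 278 FPKM in control libraries. Every tachypaced value was lower (log2 fold change -0.14, SE 0.05, limma adjusted p = 0.104, or 0.0215 without control replicate 1 and 0.0447 with a common total per library). The adjusted p for Hspd1 was 0.199 with median of ratios scaling, and up to 0.302 with another library left out. Hspe1 (HSP10, the lid; ENSMUSG00000073676.4, chr1:55088132-55091307, plus strand) stood at 162, 177 and 172 FPKM in tachypaced libraries, against 162, 159 and 146 FPKM in control libraries. Every tachypaced value was higher, though tachypaced replicate 1 (162.5) and control replicate 1 (162.2) nearly met (log2 fold change 0.13, SE 0.06, limma adjusted p = 0.177). Over all tested genes the groups did not overlap in 34.9%, 22.4% lower and 12.6% higher in tachypaced libraries, and among the 10 chaperones they did not overlap in 6, 5 lower and 1 higher.

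The Hspd1/Hspe1 ratio was 1.51, 1.40 and 1.40 in tachypaced libraries, against 1.59, 1.71 and 1.90 in control libraries. No tachypaced ratio reached the lowest control ratio, and the difference was -0.27 on the log2 scale (exact permutation test, two-sided, p = 0.1, the smallest possible here; adjusted p = 0.25 over 5 ratios). How reads of near-identical sequence were assigned is not given in the sources used here, and its part in this ratio is not reported here. The 2 genes overlap by 112 bases on opposite strands (chr1:55088132-55088243, GENCODE M21), where reads cannot be told apart without strand, and the strand setting is not given in the sources used here.

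**Figure D3:**
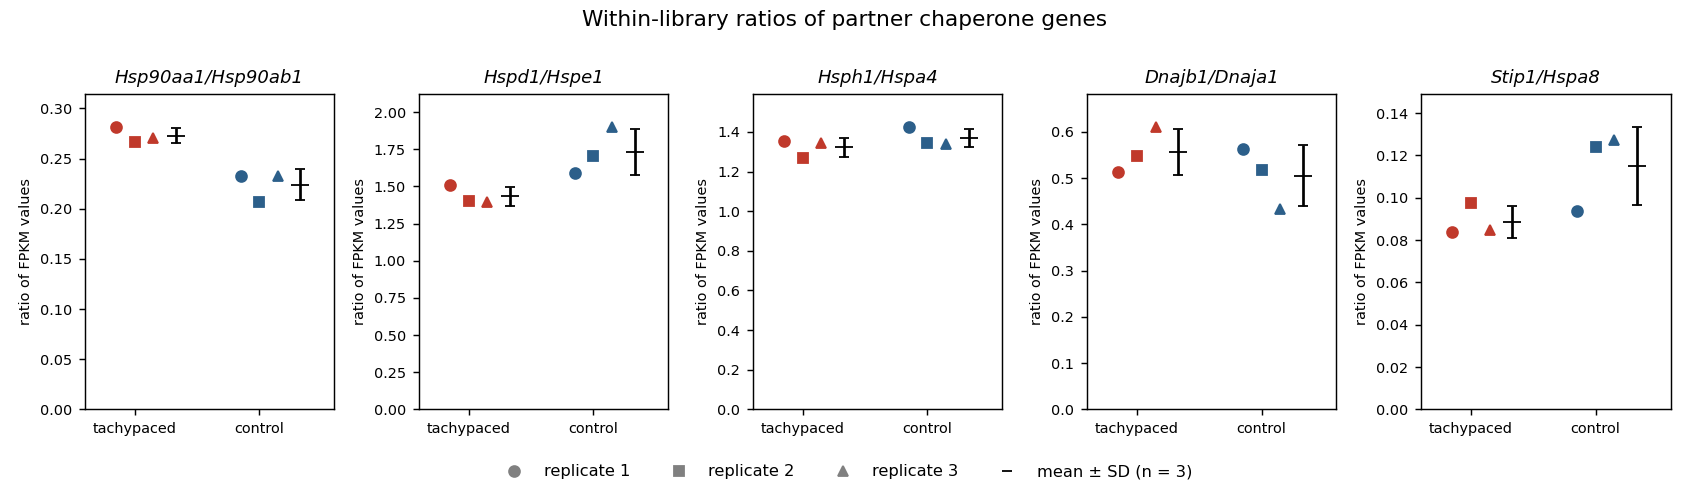
Ratio of FPKM values of 5 partner gene pairs within each library (linear axes from 0), tachypaced in red and control in blue, with mean ± SD in black. The groups separate for Hsp90aa1/Hsp90ab1 (0.267 to 0.281 in tachypaced, 0.206 to 0.233 in control) and for Hspd1/Hspe1 (1.40 to 1.51 in tachypaced, 1.59 to 1.90 in control), and overlap for the other 3.

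Hspd1 and Hspe1 lie head to head on opposite strands, and RefSeq gives Hspd1 2 start sites. One lies 216 bases from the Hspe1 start with the genes pointing away from each other, and the other lies 95 bases inside Hspe1, so that transcripts from it overlap Hspe1 and run through the stretch between the other starts. That stretch is shown because it lies upstream of a start of each gene. It holds 4 alternating heat shock units, the GAA and TTC blocks to which HSF1 binds, in capitals in the sequence of 150 bases before the Hspe1 start (RefSeq, GRCm38.p6, chr1:55087998-55088147, plus strand).
Hspe1: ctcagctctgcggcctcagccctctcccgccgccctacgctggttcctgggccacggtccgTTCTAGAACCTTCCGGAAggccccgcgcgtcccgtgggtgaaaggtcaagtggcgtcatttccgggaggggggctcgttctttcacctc
The run of 18 bases lies at positions -89 to -72 from this Hspe1 start and at -144 to -127 from the Hspd1 start that does not overlap Hspe1. The window of the other Hspd1 start held 0 matches. Promoter windows (250 bases before to 50 after the start) were searched for GAANNTTC or TTCNNGAA, each its own reverse complement, so 1 search covers both strands, and neighbouring matches share a block. Of all 32851 RefSeq windows 15.1% held a match, 0.603% held 3 blocks in a row (GAANNTTCNNGAA or TTCNNGAANNTTC) and 8 held 4 or more. These 8 include the Hspe1 window and the Hspd1 window that hold this same run of 18 bases.

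Of the 10 genes 7 had 1 to 3 promoter windows each, and 5 of these 12 windows held a match, in 4 genes (1 of 2 windows for Hspd1, the single window of Hspe1, both of Hsph1 and 1 of 3 for Dnaja1). These windows are not independent. The Hspd1 and Hspe1 matches are the same run of 18 bases, and both Hsph1 windows overlap and hold the same matches. A gene with several windows has more chances of a match than the share per window gives. The windows of Hspd1, Hspe1 and Hsph1 that matched held 3 blocks in a row. For Hsph1 these lie at 37 to 49 after the start used for the bases shown, and so outside those bases. Counted from the other Hsph1 start they lie at 16 to 28. No promoter of Hsp90aa1, Hsp90ab1 or Hspa8 was searched. The windows of Stip1, Hspa4 and Dnajb1 held no such letters, which says nothing of HSF1 at these genes. Sequences are shown for Hsph1 and Dnaja1, heat-inducible chaperones with a match, and for Stip1, the called gene with a window, as the 150 bases before the start with matches in capitals (RefSeq, GRCm38.p6; Hsph1 chr5:149636337-149636486, minus strand; Dnaja1 chr4:40722318-40722467, plus strand; Stip1 chr19:7040027-7040176, minus strand).
Hsph1: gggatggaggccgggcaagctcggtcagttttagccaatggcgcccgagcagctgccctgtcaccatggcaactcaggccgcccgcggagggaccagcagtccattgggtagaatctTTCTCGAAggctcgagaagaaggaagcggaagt
Dnaja1: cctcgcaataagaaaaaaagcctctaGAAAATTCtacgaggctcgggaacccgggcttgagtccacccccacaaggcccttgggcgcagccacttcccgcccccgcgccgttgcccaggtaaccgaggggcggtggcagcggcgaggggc
Stip1: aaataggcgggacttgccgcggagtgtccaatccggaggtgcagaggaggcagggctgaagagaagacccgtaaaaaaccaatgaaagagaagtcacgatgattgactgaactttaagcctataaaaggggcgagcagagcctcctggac
The genes with a match had log2 fold changes of -0.14 (Hspd1), 0.13 (Hspe1), -0.14 (Hsph1) and -0.10 (Dnaja1), and those without one had -0.40 (Stip1), -0.09 (Hspa4) and 0.04 (Dnajb1). Of these 7 genes Stip1 alone passed the test, and whether a match goes with a change was not tested.

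The wider network was read from 4 lists of other chaperone genes: HSP90 co-chaperones, other HSP70, J-domain and exchange factor genes, other mitochondrial chaperones and proteases, and small heat shock proteins with heat shock factors. Of their 83 genes 72 could be tested, and 0 rose and 0 fell (limma, adjusted p threshold of 0.05), with 4 higher and 23 lower at an unadjusted p under 0.05, against 10.8% and 19.4% of all tested genes. Without control replicate 1, 5 of the 72 rose and 29 fell, where 11.2% of all tested genes rose and 18.8% fell. The median log2 fold change of the 72 genes was -0.09, against -0.04 over all tested genes, and 56 of them (77.8%) were negative, against 58.9% of all tested genes.

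The classical stress-inducible HSP70 genes did not pass the test. Hspa1b stood at 38.6, 37.3 and 41.1 FPKM in tachypaced libraries, against 42.3, 38.9 and 40.6 FPKM in control libraries (limma adjusted p = 0.542). Hspa1a averaged 7.75 ± 0.337 FPKM in tachypaced and 7.98 ± 0.544 FPKM in control libraries (SD, n = 3 each, limma adjusted p = 0.769). These neighbouring genes are near-identical, so reads can be divided between them either way, and neither row separated the groups. Hsf1, the factor that induces them, stood at 26.7, 27.3 and 26.6 FPKM in tachypaced libraries, against 24.4, 23.3 and 22.6 FPKM in control libraries. The groups did not overlap for Hsf1, and it did not pass (log2 fold change 0.19, SE 0.05, limma adjusted p = 0.0673, or 0.0131 without control replicate 1 and up to 0.211 with another library left out). The small heat shock gene Hspb1, strongly heat-induced in many cells, was listed at 0 in 5 of 6 libraries.

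Among the HSP90 co-chaperones, 0 of 21 rose and 0 fell. At an unadjusted p under 0.05 by limma, 1 was higher and 7 lower, against 10.8% and 19.4% of all tested genes. Cdc37, which loads kinases on HSP90, averaged 60.4 ± 4.003 FPKM in tachypaced and 60.7 ± 8.87 FPKM in control libraries (SD, n = 3 each, limma adjusted p = 0.993). Ahsa1, which speeds up the HSP90 ATPase, averaged 40.7 ± 1.79 FPKM in tachypaced and 46.8 ± 5.71 FPKM in control libraries, with the groups overlapping. The limma adjusted p for Ahsa1 was 0.172, or 0.00859 without control replicate 1 and up to 0.460 with another library left out. The largest fold change of the list, singled out after its values were seen, was that of Nudc, a dynein-associated HSP90 partner, at 64.6, 65.6 and 62.3 FPKM in tachypaced libraries, against 67.1, 99.6 and 106 FPKM in control libraries. As for Stip1, control replicate 1 of Nudc lay beside the tachypaced libraries and not beside the other controls (log2 fold change -0.47, SE 0.14, limma adjusted p = 0.0774). Without that library it was -0.67 (adjusted p = 0.00031), but leaving out the control nearest to the tachypaced libraries widens the difference by construction. Without control replicate 2 or 3 the adjusted p for Nudc was 0.220 and 0.225. With a common total per library the log2 fold change was -0.51 (adjusted p = 0.0468), and with median of ratios scaling -0.44 (adjusted p = 0.0923).

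In mitochondria, the mean of the matrix HSP70 lay above control and that of the matrix HSP90 below, and neither gene passed the test. Hspa9 (mortalin, the matrix HSP70) stood at 399, 403 and 382 FPKM in tachypaced libraries, against 386, 332 and 331 FPKM in control libraries. Control replicate 1 fell within the tachypaced range, and the log2 fold change of 0.18 did not pass (SE 0.07, limma adjusted p = 0.118, or 0.00566 without that library). The adjusted p for Hspa9 reached up to 0.325 with another library left out. Trap1 (the matrix HSP90) stood at 58.1, 63.4 and 61.8 FPKM in tachypaced libraries, against 68.6, 71.6 and 71.1 FPKM in control libraries. Its groups did not overlap, and the log2 fold change of -0.20 (SE 0.05) missed the threshold (limma adjusted p = 0.0573). The adjusted p for Trap1 was 0.0140 without control replicate 1, 0.0314 with a common total per library and 0.0470 with a minimum mean of 5 FPKM. It was 0.0528 with the replicate block, 0.0840 with median of ratios scaling, 0.0870 without the trend and 0.126 with no filter on low values. With a library other than control replicate 1 left out, it reached up to 0.196. Over the list of other mitochondrial chaperones and proteases 0 of 16 rose and 0 fell. At an unadjusted p under 0.05 by limma, 1 was higher and 4 lower, against 10.8% and 19.4% of all tested genes.

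**Figure D4:**
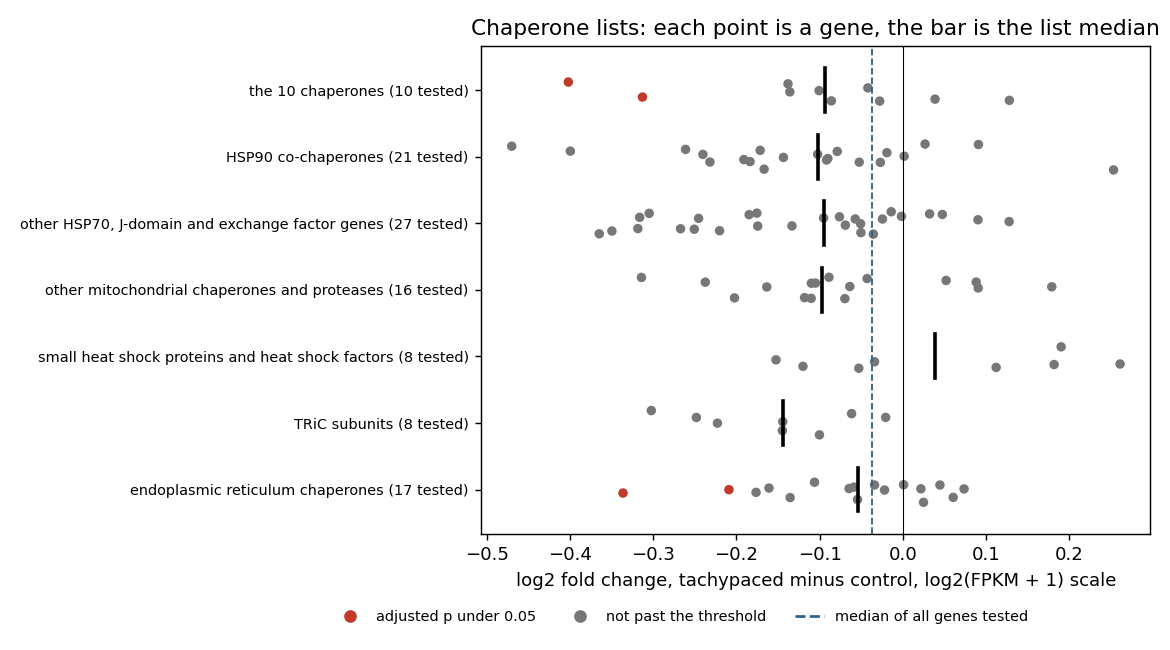
Log2 fold change (tachypaced minus control, log2(FPKM + 1) scale) of each tested gene in the 10 chaperones, the 4 network lists and 2 comparison lists, red where the adjusted p was under 0.05, with a black bar at each list median and a dashed line at the median of all genes (-0.04). The medians run from -0.14 (TRiC subunits) to 0.04 (small heat shock proteins and heat shock factors), and the called genes are Hsp90ab1, Stip1, Hsp90b1 and Calr.

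The 2 most similar gene sets are given for scale. Of 8 subunits of TRiC, the cytosolic chaperonin that folds actin and tubulin, 0 rose and 0 fell (0 higher and 5 lower at an unadjusted p under 0.05 by limma, against 10.8% and 19.4% of all tested genes), with a median log2 fold change of -0.14. Of 17 chaperones of the endoplasmic reticulum, 2 fell and 0 rose, against 3.22% and 2.30% of all tested genes, with a median of -0.05. The reticulum HSP90, Hsp90b1, fell like its cytosolic relative Hsp90ab1, to 524, 501 and 559 FPKM in tachypaced libraries, against 606, 666 and 732 FPKM in control libraries (log2 fold change -0.34, SE 0.08, limma adjusted p = 0.0458). Calr, the lectin chaperone calreticulin that also buffers reticulum calcium, fell as well, to 486, 479 and 503 FPKM in tachypaced libraries, against 548, 578 and 571 FPKM in control libraries (log2 fold change -0.21, SE 0.05, limma adjusted p = 0.0478). Both calls were lost with median of ratios scaling (adjusted p = 0.0511 for Hsp90b1 and 0.0714 for Calr), with no filter on low values (0.128 and 0.126 in the same order), without the trend (0.0648 and 0.0759) and when any library other than control replicate 1 was left out. The reticulum HSP70, Hspa5 (BiP), averaged 2016 ± 71.4 FPKM in tachypaced and 2015 ± 101 FPKM in control libraries (SD, n = 3 each, limma adjusted p = 0.993). In the cytosol and the reticulum, an HSP90 gene was called lower and the main HSP70 gene was not called. The other cytosolic HSP90 gene, Hsp90aa1, was not called (log2 fold change -0.03, limma adjusted p = 0.816). Nor was the matrix HSP90, Trap1 (log2 fold change -0.20, limma adjusted p = 0.0573). A difference between HSP90 and HSP70 genes was not tested.

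The 5 tested genes whose log2 values most resembled the mean profile of the 10 chaperones over the 6 libraries were Lbr, Gpd2, Rock1, Ltn1 and Brat1, with Pearson r from 0.997 to 0.998. These points share libraries, and a difference between the groups alone gives high values, so the r is a description. The mean profile is not that of each chaperone, as pairs of the 10 correlated from -0.95 (Hspe1 and Hspa4) to 0.99 (Hspd1 and Stip1). Lbr, the lamin B receptor, had the closest profile, at 17.6, 17.2 and 18.7 FPKM in tachypaced libraries, against 21.1, 20.5 and 22.3 FPKM in control libraries.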

How the data were processed

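The authors deposited FPKM values per gene name and library. Per the submitters' processing notes, reads were placed on GRCm38 (mm10). No aligner, quantifier, annotation or strand setting is given in the sources used here. FPKM depends on transcript length, on the library total and on how reads of near-identical copies were assigned. Runs of 100 bases shared with other GENCODE M21 genes were found for Hspa8 (7 genes), Hsp90aa1 (3), Dnaja1 (3), Hspd1 (2), Hspe1 (1) and Stip1 (1, Cfap20); of these only Cfap20 has a row of that name in the table. Ratios between 2 libraries of values under 0.5 FPKM did not gather on common steps (for any pair, no log2 window 0.05 wide held over 3.45% of such genes), so no reads were recovered from FPKM and no depth, interval or floor is given.

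Columns were matched to samples by their descriptions; groups and replicate numbers came from titles. After a log2(FPKM + 1) transform, 10361 genes averaging 1 FPKM or more entered the fit over all 6 libraries (R 4.3.3, limma 3.58.1, lmFit and eBayes with trend, two-sided, no covariates), Benjamini-Hochberg adjusted over all of them. Fold changes on this scale understate low genes. Ratios were tested by exact permutation (scipy 1.17.1). Their log2 differences and p-values were computed after adding 1 FPKM to each value, while the ratios printed are of plain FPKM values. The fit was tested on simulated data with changes of 0.5 and more on the log2 scale, larger than those of the members.

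The members and lists were chosen with earlier results of these data known. The text names all 10 members, up to 4 called genes per list with the largest changes, 8 fixed genes (Hspa1a, Hspa1b, Hspa9, Trap1, Cdc37, Ahsa1, Hsf1 and Hspa5), the 5 genes nearest in profile, and any pseudogene row of a member with a -ps name, of which there were 0; Nudc and Hspb1 were added after their values were seen. Alternatives were median of ratios scaling, a common total, a pseudocount of 0.1, no filter, a 5 FPKM minimum, no trend, a replicate block and leaving out each library. Positions are from GENCODE M21, and promoters from RefSeq GRCm38.p6.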

Additional observations from a re-analysis of the deposited data

How the results depend on the processing

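The directions of Hsp90ab1, Stip1, Hspd1, Hspe1, Hspa8, Hspa4, Hsph1 and Dnaja1, and of the 5 ratios, held under every alternative run. The count of chaperones called lower, 2, became 1 with median of ratios scaling (Hsp90ab1 remained, Stip1 had adjusted p = 0.0523), 3 with a common total, 0 with no filter on low values and 0 without the trend, and ran from 0 to 3 with 1 library left out. Over all genes, no filter gave 0 higher and 0 lower calls and no trend gave 2 and 0, while lower calls numbered 924 with a common total, 184 with median of ratios scaling and 591 with the replicate block. With 1 library left out the calls ran from 1 to 1160 higher and from 0 to 1948 lower. The network lists, with 0 calls, had 10 lower calls with a common total, 5 with a minimum mean of 5 FPKM, and 1 higher and 6 lower with the replicate block, and ran from 0 to 5 higher and from 0 to 29 lower with 1 library left out. The causes of these shifts were not tested.

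Fold changes near 0 changed sign in uncalled genes. With 1 library left out, Hsp90aa1 ran from -0.0845 to 0.0404 (above 0 without control replicate 3 or tachypaced replicate 2), Dnajb1 from -0.0389 to 0.1393 (below 0 without control replicate 3 or tachypaced replicate 3), Hspa1a from -0.0648 to 0.014 (above 0 without control replicate 1), Cdc37 from -0.1239 to 0.0678 (below 0 without control replicate 1 or tachypaced replicate 2) and Hspa5 from -0.0283 to 0.041 (above 0 without control replicate 1 or tachypaced replicate 2). Hsp90aa1 was at 0.0023 with median of ratios scaling, and Cdc37 and Hspa5 were at -0.0369 and -0.0382 with a common total.

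Whether the replicate numbers pair the libraries cannot be settled with 3 libraries per group. Deviations from the group means of same-numbered libraries correlated at 0.061, -0.034 and 0.157 over genes, the last being the highest of all pairs. Control replicates 1 and 2 correlated better with a tachypaced library of another number. The replicate block gave 334 higher and 591 lower calls over all genes, against 238 and 334 without it. It left Hsp90ab1 (adjusted p = 0.0321) and Stip1 (adjusted p = 0.0365) called, and ended the call of Calr (0.0532). Depth is unknown, so counting error cannot be given.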
